A study of Catharanthus roseus with 3 samples.

Results

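Root was set against flower in adult, field-grown plants of Catharanthus roseus variety Prabal, the Madagascar periwinkle. The comparison used 2 of the 3 libraries of the series, 1 from root and 1 from flower, and the leaf library was left out. Both tissues came from untreated plants of the same variety, and how many plants went into a library is not given in the sources used here. With 1 library per tissue there was no replicate, so sizes of difference are described and no test was made. In whole tissue, fewer cells of a type and less RNA per cell cannot be told apart. The values were taken as RPKM, read numbers divided by transcript length and by library size, for 59220 transcripts assembled without a genome. The authors obtained these transcripts by merging an assembly of their own reads with an earlier one from different tissues and treatments. The deposited files pair no gene names with the transcripts, and no marker of root or flower could be looked up to check the labels.

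C. roseus makes terpenoid indole alkaloids (TIAs), among them the anticancer drug vinblastine. The MEP pathway in the plastid supplies isoprenoid units, and the iridoid branch builds the monoterpene secologanin from them. The indole branch makes tryptamine from tryptophan, and strictosidine synthase joins tryptamine and secologanin to strictosidine, the common precursor of the TIAs. After removal of its glucose, strictosidine is led to catharanthine, ajmalicine, tabersonine and many other alkaloids. The vindoline branch starts from tabersonine and is known from aerial tissue, while roots are known for ajmalicine, serpentine and the products of another tabersonine hydroxylase, T19H. Jasmonate switches the pathway on through MYC2 and the ORCA proteins.

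Most detected transcripts were shared between root and flower, but the amounts differed widely. Root had 48814 transcripts above 0 and flower 46384, of which 43542 were common to both, and 7564 were at 0 in both. Summed values were close, 471970 RPKM in root and 464279 in flower. Root had 8655 transcripts at 10 RPKM or more and flower 9641, with 6657 in common. Across the 43542 transcripts above 0 in both, the rank correlation between the tissues was 0.73, given as a description since transcripts are not replicates.

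Transcripts were compared where the larger of both values was at least 10 RPKM, on the scale log2((root + 1)/(flower + 1)). A difference of at least 2-fold was found for 5162 of 11639 transcripts, or 44.4%, with 2419 higher in root (20.8%) and 2743 lower in root (23.6%). The median log2 ratio was -0.18, and the quartiles were -0.92 and 0.70. The sign of this median, and which direction held more transcripts, changed with how the libraries were scaled. The second also changed with the pseudocount, since a pseudocount of 10 gave 1702 higher and 1639 lower. Scaling by the median ratio added 0.23 to the log2 ratio of root to flower, gave a median of 0.04 and put 56.8% of the differing transcripts on the root side, against 46.9% in the values as deposited. Scaling to a common upper quartile added 0.36 and put 62.3% of them there. Log2 ratios near 0 are therefore best read against these shifts.

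With the pseudocount of 1, the larger differences lay more often on the flower side. At 4-fold, 1343 transcripts were higher and 1380 lower in root, close to an even split. At 8-fold the numbers were 695 and 843, at 16-fold 265 and 495, at 32-fold 74 and 287, and at 64-fold 22 and 156, so that the lower transcripts were 7.09 times as many as the higher ones at the last step. Plain ratios without a pseudocount reached further on the root side, where the largest among transcripts of at least 100 RPKM was 5343, against 2049 for flower to root.

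**Figure D1:**
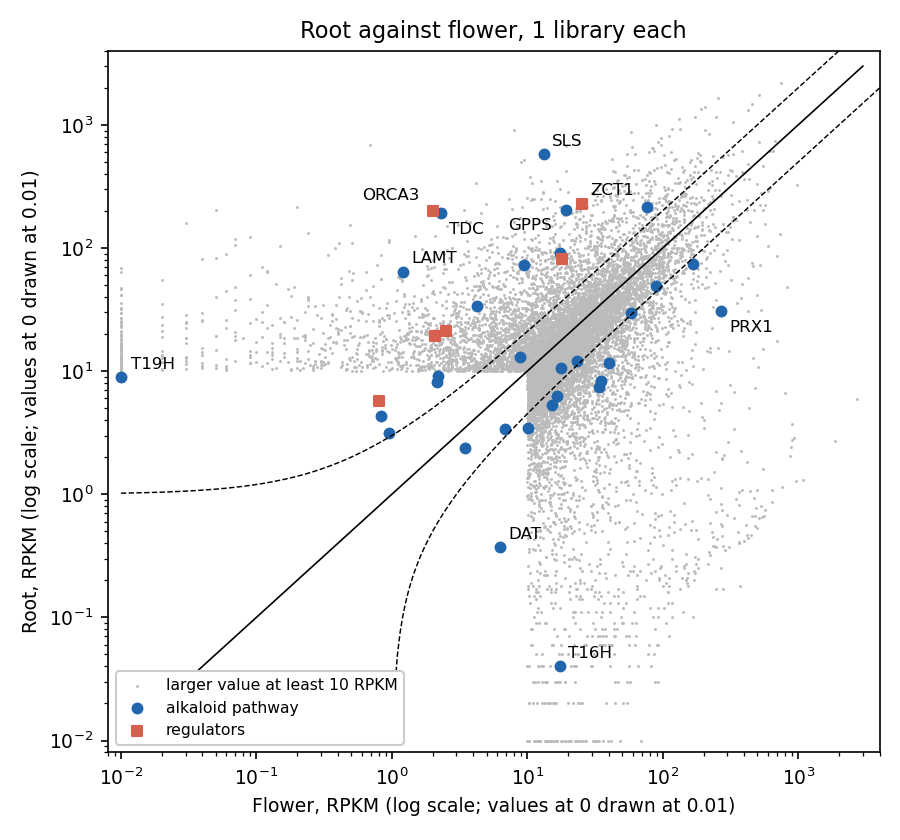
Each grey point is 1 of the 11639 transcripts compared, by its RPKM in flower and in root on log axes, with values at 0 drawn at 0.01. Blue circles are the 30 alkaloid pathway transcripts and red squares the 6 regulators, the full line marks equal values and the dashed lines the 2-fold limits. SLS, TDC, LAMT and ORCA3 stand far above the line, T16H far below it, and a band of points with 100 RPKM or more in flower runs parallel to the line at the lower right.

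The difference between the tissues grew with the level of expression. Of 4677 transcripts whose larger value was 10 to 20 RPKM, 39.6% differed at least 2-fold, with 794 higher and 1056 lower in root. From 50 to 100 RPKM 51.6% of 1586 differed, from 100 to 200 RPKM 60.4% of 670, and from 200 to 500 RPKM 76.5% of 362. Of the 91 transcripts reaching 500 RPKM, 46 were higher and 35 lower in root, and only 10 lay within 2-fold. Binning by the larger value favours transcripts that are high in a single tissue. With bins by the mean of root and flower the increase was still seen, from 35.3% at 10 to 20 RPKM to 80.0% of the 25 transcripts with a mean of at least 500 RPKM.

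The middle of the ratios moved towards root along the same range. The median log2 ratio was -0.25 at 10 to 20 RPKM, 0.22 at 100 to 200 RPKM and 1.25 at 500 RPKM and over. The first of these became -0.02 after scaling by the median ratio and 0.12 with a common upper quartile, while the last became 1.81 and 2.04. Both tails widened, the lower one further. From the first bin to the last, the 5th percentile went from -2.83 to -8.44 and the 95th from 3.06 to 5.19. With the pseudocount of 1, transcripts under 20 RPKM cannot reach 32-fold in either direction, so part of this widening was fixed by the scale. At 500 RPKM and over, 22 transcripts were at least 32-fold lower and 6 at least 32-fold higher in root. Under the upper-quartile scaling this bin held 87 transcripts, of which 21 were at least 2-fold and 14 at least 32-fold lower in root.

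**Figure D2:**
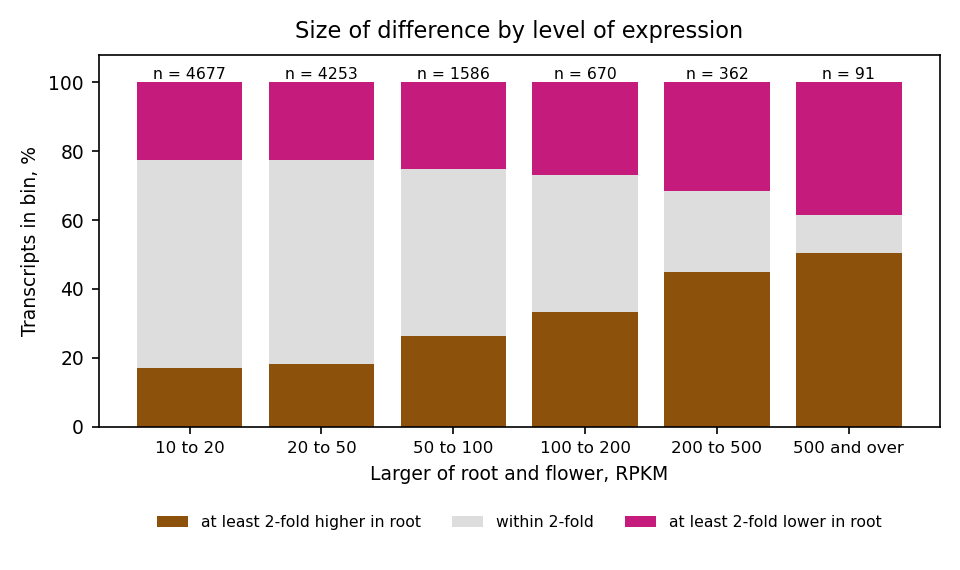
Stacked bars give the percent of transcripts at least 2-fold higher in root, within 2-fold and at least 2-fold lower in root, in bins of the larger of the root and flower RPKM, with the number of transcripts above each bar. The part within 2-fold shrinks from 60.4% at 10 to 20 RPKM to 11.0% at 500 RPKM and over.

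Transcripts within 2-fold carried less of the summed expression in either tissue than the other classes together. They were 6477 transcripts holding 42.9% of the summed RPKM of root and 44.3% of that of flower. The 2419 transcripts at least 2-fold higher in root held 39.1% of the root sum but 8.51% of the flower sum. The 2743 lower ones held 5.45% and 34.7%, respectively. The remaining 47581 transcripts, under 10 RPKM in both, made up 12.6% of the root sum and 12.4% of the flower sum.

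The highest transcripts of the tissues were mostly different ones. Of the 100 highest in each, 14 were shared, which is 14.0% of each list, and of the 20 highest 1 was shared. The root list held 13.3% of the root sum and the flower list 12.0% of the flower sum. The lists differed in how low their members were in the other tissue. The 100 highest of root had a median of 136.6 RPKM in flower, with a median rank of 406, and 4 of them were under 10 RPKM there. The 100 highest of flower had a median of 16.3 RPKM in root, with a median rank of 5902, and 47 of them were under 10 RPKM and 24 under 1 RPKM there. At least 32-fold above the other tissue were 51 of the 100 in flower and 7 of the 100 in root.

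**Figure D3:**
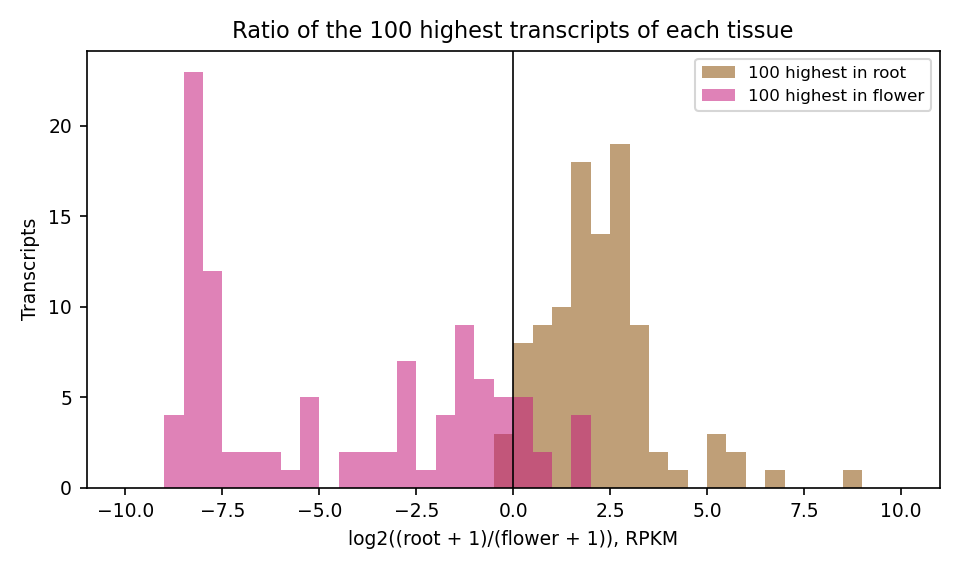
Histograms of log2((root + 1)/(flower + 1)) in steps of 0.5 for the 100 highest transcripts of root (brown) and of flower (pink), which share 14 transcripts. The root list forms a single hump with a median ratio of 2.13, while the flower list has many transcripts near 0 to -3 and a second group near -8.

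The second group was looked at after the plot of both tissues had been seen, on plain ratios without a pseudocount. Of 671 transcripts with at least 100 RPKM in flower, 131 (19.5%) had a ratio of flower to root of 100 or more, and in 93 of these it lay between 300 and 1000. Between 32 and 100 there were 28, so the numbers went up again towards the far end. The median of the 131 ratios was 558, with quartiles of 332 and 754, and none of the 671 was at 0 in root. On the root side, 17 of 732 transcripts with at least 100 RPKM (2.32%) had a ratio of root to flower of 100 or more, of which 4 lay between 300 and 1000. The root values of the 131 transcripts ran from 0.07 to 6.66 RPKM with a median of 0.51. Whether RNA or reads of flower in the root library had a part in these values was not tested.

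Transcripts under 1 RPKM in the other tissue were more frequent in flower, but those listed at 0 there were more frequent in root. Of 8655 transcripts with at least 10 RPKM in root, 408 (4.71%) were under 1 RPKM in flower, and 79 were listed at 0 there. Of 9641 with at least 10 RPKM in flower, 592 (6.14%) were under 1 RPKM in root and 42 were listed at 0. The flower set was also the stronger in amount, with 8.32% of the summed RPKM of flower against 2.33% of that of root for the root set. Among transcripts of at least 100 RPKM, 99 in flower and 15 in root were under 1 RPKM in the other tissue, while none was listed at 0 in either direction. With at least 10 RPKM in the first tissue and under 0.1 in the other there were 155 in root and 182 in flower. Of the 155 in root, 75 lay in a single run of identifiers, 52001 to 56500, described below.

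The 2 transcripts furthest above flower among the 1123 reaching 100 RPKM were Cr_TC37372 and Cr_TC45421. Cr_TC37372 had 685 RPKM in root, rank 24, and 0.69 in flower, rank 28920, a log2 ratio of 8.67. Cr_TC45421 had 204 RPKM in root and 0.05 in flower, a log2 ratio of 7.61. The 2 furthest below were Cr_TC40939 and Cr_TC40483, ranks 2 and 3 in flower. Cr_TC40939 had 2.7 RPKM in root and 1884 in flower, a log2 ratio of -8.99. Cr_TC40483 had 1.3 RPKM in root and 1079 in flower, a log2 ratio of -8.88. What these transcripts encode is not given in the sources used here. The plain ratios of the last pair, 698 and 830 for flower to root, lay inside the second group described above.

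Of the 30 TIA pathway transcripts, root was above flower for 14 and below it for 16. With the minimum of 10 RPKM, 22 were compared, and 8 of these (36.4%) were at least 2-fold higher and 9 (40.9%) at least 2-fold lower in root, beside 20.8% and 23.6% of all transcripts compared. Without a minimum, 13 of the 30 were higher and 10 lower, beside 15.1% and 10.3% of all 59220 transcripts, of which 25.3% differed in either direction. Which direction led with the minimum changed with the setting. The numbers higher and lower were 8 and 7 after scaling by the median ratio, 10 and 6 with a common upper quartile, and 8 and 6 with a pseudocount of 10. The median log2 ratio of the 22 was -0.87, beside -0.18 over all transcripts compared, and that of all 30 was -0.54. Log2 ratios of the 30 ran from -4.14 for T16H to 5.87 for TDC. The sum over the 30 was 1751 RPKM in root and 968 in flower, and SLS alone made up 577 of the first. The identifiers of 18 of these 30 transcripts and of all 6 regulators were read from pictures alone, 11 and 6 of them from the small print of a heat map, so a misread digit would give the values of another transcript.

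**Figure D4:**
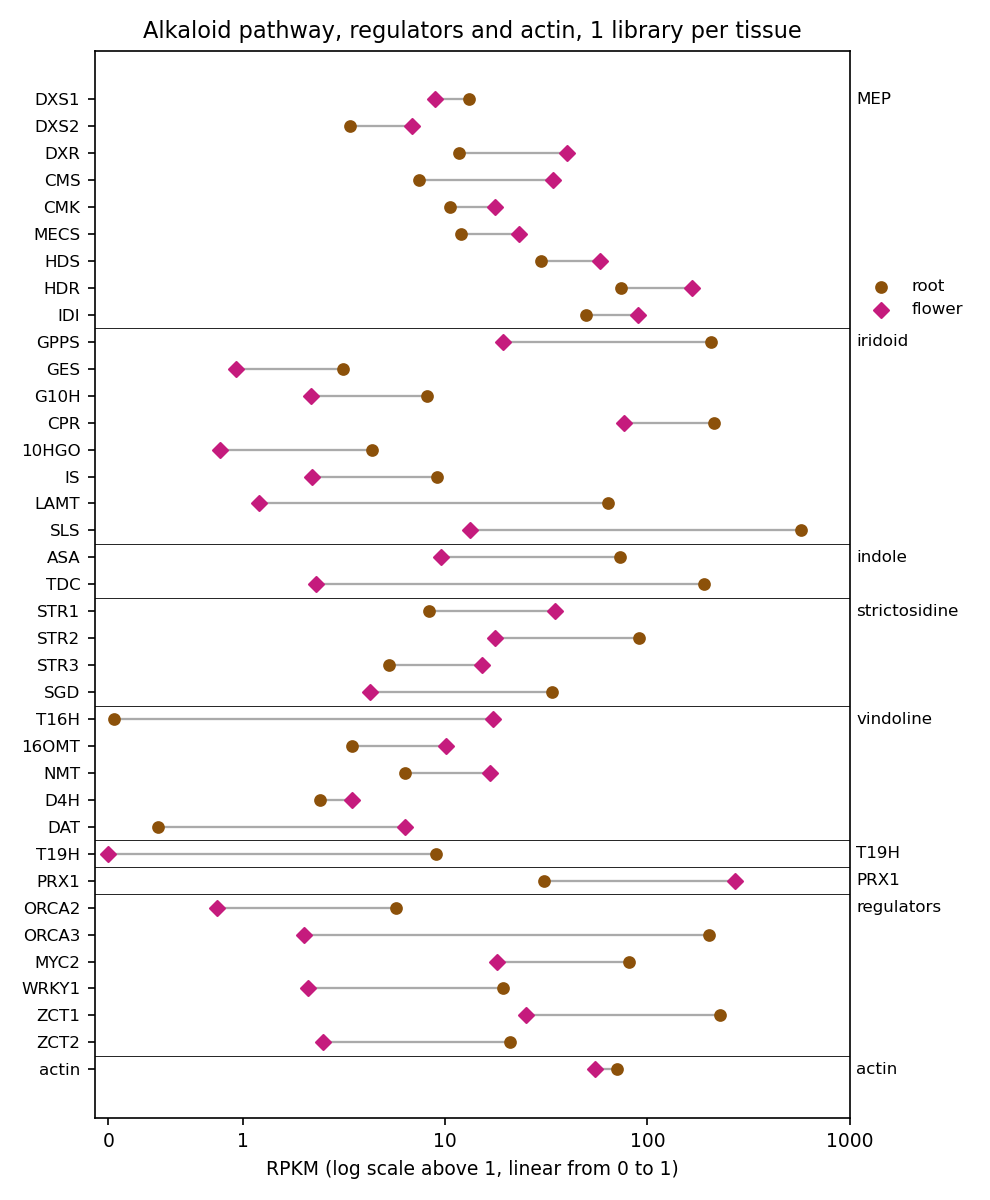
RPKM in root (brown circles) and flower (pink diamonds) of the 30 pathway transcripts, the 6 regulators and actin, 1 library per tissue, on an axis that is linear from 0 to 1 and logarithmic above. Root lies above flower for all 8 iridoid, both indole and all 6 regulator transcripts. It lies below flower for 8 of the 9 MEP transcripts, IDI counted among them, and for all 5 vindoline transcripts.

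Flower had the higher values for 8 of 9 transcripts of the MEP pathway, counted here with IDI, an isomerase acting on its products. Their sum was 211 RPKM in root and 444 in flower, and the median log2 ratio was -0.89. CMS, which makes the cytidyl intermediate, had 7.41 RPKM in root and 34.1 in flower, a log2 ratio of -2.06. DXR, which commits carbon to the pathway, had 11.7 in root and 40.1 in flower (-1.69), and HDR, the last enzyme, had 73.9 and 166 (-1.16). These 3 of the 8 compared (37.5%) were at least 2-fold lower in root, beside 23.6% of all transcripts compared, but HDR stood at -0.93 after scaling by the median ratio and -0.80 with a common upper quartile. HDS, the enzyme before HDR, had 29.7 RPKM in root and 58.3 in flower, a log2 ratio of -0.95, and lay just inside the limit.

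The other transcripts of this group were closer still. MECS, the cyclodiphosphate synthase, had 12.0 RPKM in root and 23.1 in flower, and the kinase CMK had 10.6 and 17.6. IDI, the isomerase that interconverts the isoprenoid units, had 49.4 in root and 89.6 in flower. The exception in direction was DXS1, from a pair of isoforms of the first enzyme of the pathway. DXS1 had 13.1 RPKM in root and 8.88 in flower, a log2 ratio of 0.52, whereas DXS2 had 3.36 and 6.83, a log2 ratio of -0.84. DXS2 stayed under 10 RPKM in both tissues.

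In the iridoid branch root was the higher for all 8 transcripts, and the largest differences stood at its end. Without a minimum all 8 were at least 2-fold higher, beside 15.1% of all 59220 transcripts. The 4 that reached 10 RPKM were all higher as well, beside 20.8% of all transcripts compared. The sum over the 8 was 1085 RPKM in root and 116 in flower, 9.33 times as high in root. This sum includes CPR, a reductase not confined to this branch, which held 65.7% of it in flower. SLS, a cytochrome P450 that opens loganin to secologanin, had 577 RPKM in root and 13.3 in flower, a log2 ratio of 5.34. It ranked 40 in root and 7806 in flower, and 49 of the 11639 transcripts compared had a larger log2 ratio. LAMT, the methyltransferase one step before it, had 64.1 in root and 1.20 in flower, a log2 ratio of 4.89. Only 83 of the transcripts compared had a larger one. SLS held 53.1% of the summed iridoid RPKM in root, against 11.4% in flower.

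At the entry of the branch, GPPS, the small subunit of the enzyme that makes geranyl diphosphate, had 205 RPKM in root and 19.3 in flower, a log2 ratio of 3.34. CPR, the reductase that passes electrons to cytochrome P450 enzymes in general, was the highest of the branch in flower, with 76.4 RPKM there and 214 in root (1.48). It held 65.7% of the iridoid sum in flower and 19.7% in root. The 4 transcripts between these ends stayed under 10 RPKM in both tissues. IS, iridoid synthase, had 9.06 RPKM in root and 2.19 in flower, and G10H, which hydroxylates geraniol, had 8.14 and 2.16. The dehydrogenase 10HGO had 4.34 in root and 0.83 in flower, and GES, which makes geraniol, had 3.13 and 0.95. Their log2 ratios of 1.08 to 1.66 exceeded 2-fold, but were 0.26 to 0.64 with a pseudocount of 10, where a transcript under 10 RPKM cannot reach 2-fold. Root values along the branch were thus uneven, from 205 RPKM at GPPS down to 3.13 at GES and up to 577 at SLS.

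Both indole-branch transcripts reached 10 RPKM and stood at least 2-fold higher in root, beside 20.8% of all transcripts compared. TDC, which turns tryptophan into tryptamine, had 191 RPKM in root, rank 315, and 2.29 in flower, rank 18846. Its log2 ratio of 5.87 was exceeded by 25 of the 11639 transcripts compared. ASA, the alpha subunit of anthranilate synthase at the start of tryptophan synthesis, had 73.2 in root and 9.52 in flower (2.82). The sum of both was 22.4 times as high in root as in flower.

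The strictosidine step split between its transcripts. STR2 had 90.8 RPKM in root and 17.5 in flower, a log2 ratio of 2.31, while STR1 had 8.31 and 34.8 (-1.94) and STR3 had 5.29 and 15.3 (-1.37). Reads that fit several of these related sequences were not counted, since the authors kept uniquely mapped reads, and how much this took from each was not worked out. STR3 was within 2-fold with a pseudocount of 10, at -0.72. SGD, which removes glucose from strictosidine, was on the root side, with 33.8 RPKM in root and 4.25 in flower (2.73).

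After tabersonine, the values of all 5 vindoline transcripts were lower in root. The 3 that reached 10 RPKM were all at least 2-fold lower, beside 23.6% of all transcripts compared, and DAT, which did not reach it, passed 2-fold without the minimum, beside 10.3% of all transcripts. T16H, the tabersonine hydroxylase that opens the branch, had 0.04 RPKM in root and 17.3 in flower. Its log2 ratio of -4.14 understates the plain ratio of flower to root, 432, which rests on a root value near the smallest above 0, 0.01. That ratio lies between 300 and 1000, as in most of the second group of flower transcripts. T16H was left out of that group by its limit of at least 100 RPKM in flower. With a limit of 50 RPKM, 120 of 1844 flower transcripts had a ratio in this range. Whether RNA or reads of flower in the root library had a part in the root value of T16H was not tested. DAT, the acetyltransferase that ends the branch, had 0.37 RPKM in root and 6.29 in flower, a plain ratio of 17.0. The middle steps differed less. The methyltransferase 16OMT had 3.44 RPKM in root and 10.1 in flower (-1.32), and the N-methyltransferase NMT had 6.29 and 16.6 (-1.27). With a common upper quartile NMT stood at -0.95, inside the 2-fold limit. D4H, the hydroxylase before DAT, had 2.39 in root and 3.45 in flower, a log2 ratio of -0.39, so that the last steps of the branch were not equally low in root. The sum over the branch was 12.5 RPKM in root and 53.7 in flower, and none of its transcripts reached 10 RPKM in root.

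T19H, the hydroxylase that takes tabersonine away from vindoline, went the other way. It had 8.96 RPKM in root and was listed at 0 in flower, so no ratio is given. In root, with the values taken as RPKM, which allows for transcript length, T19H was above every vindoline transcript. NMT was the highest of those at 6.29. PRX1, a peroxidase able to couple vindoline and catharanthine, had 30.8 RPKM in root and 270.2 in flower, a log2 ratio of -3.09. It was the highest of the 30 in flower, at rank 139, and 818 of the 11639 transcripts compared had a smaller log2 ratio.

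All 6 regulators of the pathway stood at least 2-fold higher in root on the log2 scale without a minimum, beside 15.1% of all 59220 transcripts. With the minimum of 10 RPKM, 5 were compared and all 5 were higher, beside 20.8% of all transcripts compared. Their sum was 558 RPKM in root against 50.6 in flower, and the median log2 ratio of the 6 was 2.68, or 2.87 after scaling by the median ratio. ORCA3, a jasmonate-responsive AP2-domain activator of TIA genes, had 202 RPKM in root and 2.0 in flower. Its log2 ratio of 6.08 was the largest of the pathway genes and regulators, exceeded by 18 of the 11639 transcripts compared. ORCA2, its relative, had 5.68 RPKM in root and 0.81 in flower, 7.01 times as high in root at a much lower level. With a pseudocount of 10 its log2 ratio was 0.54.

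MYC2, the basic helix-loop-helix factor that acts upstream of the ORCA genes, had 81.2 RPKM in root and 18.1 in flower, a log2 ratio of 2.11. The zinc finger proteins ZCT1 and ZCT2 are known as repressors of TIA genes, and both were higher in root. ZCT1 had 229 RPKM in root and 25.1 in flower (3.14), which made it the highest regulator in either tissue, and ZCT2 had 21.0 and 2.49 (2.66). WRKY1, known to act on TDC and on the other regulators, had 19.3 in root and 2.10 in flower (2.71). Activators and repressors thus lay on the same side. ORCA3 ranked 296 in root and ZCT1 238, close to TDC at 315, GPPS at 282 and CPR at 264.

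The actin transcript that the study used as a reference for RT-PCR had 70.7 RPKM in root and 55.1 in flower. Its log2 ratio of 0.35 became 0.58 with the median ratio and 0.71 with a common upper quartile, all within 2-fold.

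Low transcripts of root were not spread evenly over the assembly. The identifiers of the transcripts are numbered from Cr_TC00001 to Cr_TC59220, and values were looked at in windows of 500 numbers after an uneven pattern had been noticed. In the 9 windows from 52001 to 56500, between 73.6% and 89.2% of the transcripts had 1 RPKM or more in root but under 0.1 in flower, while the share in the other 110 windows ran from 0 to 13.4%. Of the 4500 transcripts in this run, 3667 were listed at 0 in flower and 2 in root. The 3746 root-only transcripts among them were low, with a median of 1.66 RPKM and quartiles of 1.29 and 2.41, and 75 reached 10 RPKM. The run held 5.79% of the summed RPKM of root and 2.64% of that of flower. Of the named genes, only GES has its identifier in this run, and it had 0.95 RPKM in flower. What the transcripts encode, and whether all of them are of the plant, cannot be told from these values. The same holds for which of the merged assemblies each came from.

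The run had a small part in the counts with the minimum of 10 RPKM and a large part in those without it. Leaving it out, an alternative added after the data had been seen, gave 2289 transcripts higher and 2680 lower in root with the minimum. Without a minimum, 8918 of all transcripts were higher and 6077 lower in root. Without a minimum and without the run the numbers were 5025 and 5992, so the balance turned to the flower side.

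**Figure D5:**
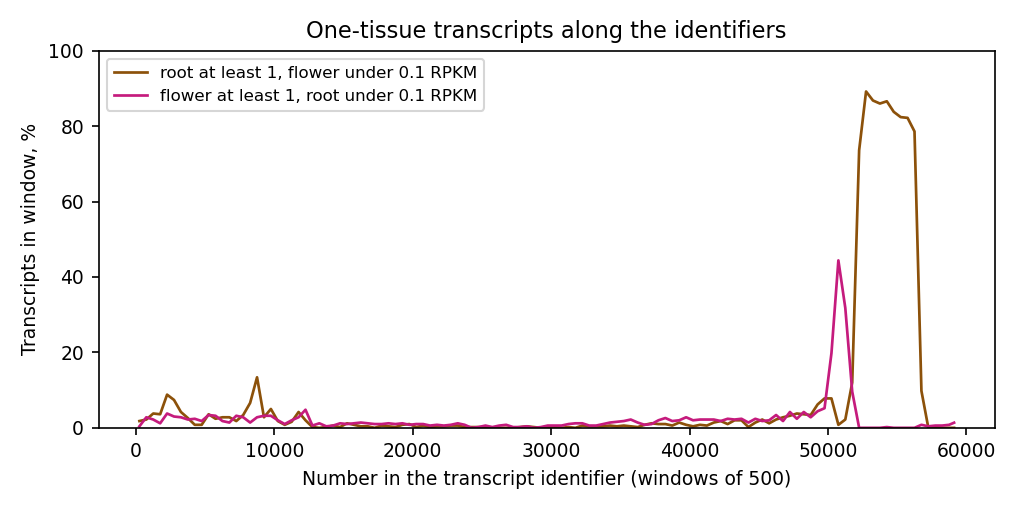
Percent of transcripts in each window of 500 identifiers that had 1 RPKM or more in root but under 0.1 in flower (brown), or the reverse (pink). The brown line stands between 73.6% and 89.2% in the windows from 52001 to 56500 and at or under 13.4% elsewhere, and the pink line has a narrow peak just before them.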

How the data were processed

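The authors filtered Illumina reads, removed duplicates and assembled transcripts de novo. They merged this assembly with an earlier C. roseus assembly, which came from different tissues and treatments. Reads were mapped onto the merged transcripts with CLC Genomics Workbench, allowing at most 2 mismatches. Uniquely mapped reads were turned into RPKM by the authors, and the submitters' processing notes name DESeq. The deposited values are headed base means, but they were taken as RPKM since they carry 2 decimals and sum to 471970 in root and 464279 in flower. Whole reads were not recovered from them, lengths were not at hand and depth per value is unknown, so no count model, interval or p-value is given. Read totals per library were not used here.

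Root and flower values were joined by transcript, and log2((root + 1)/(flower + 1)) was computed, so changes of low transcripts are understated. A transcript was compared with the larger value at least 10 RPKM and called at 2-fold. Named genes were the pathway, regulator and actin transcripts that the paper pairs with identifiers, and 2 unnamed transcripts in each direction among those reaching 100 RPKM. Of 37 such identifiers, 24 were read from pictures alone. A RefSeq table of 37298 genes matched 0 identifiers, and no sequence or coordinate is given. Members and lists were chosen with earlier results of these data known. The count code was tested on simulated data. Python 3.11.15, numpy 2.4.6, pandas 2.3.3 and matplotlib 3.10.9 were used. Alternatives were pseudocounts of 0.1 and 10, other minimums and folds, 3 scalings, and bins by the mean.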

Additional observations from a re-analysis of the deposited data

How the results depend on the processing

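With 1 library per tissue, none of these values has a replicate error, and no paired analysis was possible because the result comes from no test and no group has a second library. Of 41 named transcripts under 5 alternatives each (pseudocounts of 0.1 and 10 and 3 scalings), the side of the 2-fold limit was kept in 191 of 205 values, changed in 14 and the sign of a called ratio changed in 0. The changes were DXS2 (-1.0 with a pseudocount of 0.1), HDR and NMT under scaling, and GES, G10H, 10HGO, IS, STR3, 16OMT, NMT, DAT, T19H and ORCA2 with a pseudocount of 10.

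The pseudocount of 10 gave 1702 transcripts higher and 1639 lower in root, and 14.5% apart at 10 to 20 RPKM. The numbers higher and lower in root were 1343 and 1380 with a limit of 4-fold, 695 and 843 with 8-fold, and 74 and 287 with 32-fold. By level, 4-fold gave 18.7%, 20.6%, 29.6% and 37.5% apart in the bins from 10, 20, 50 and 100 RPKM, and 3 pathway genes lower. With no minimum, 8918 were higher and 6077 lower, with 13 pathway genes higher, and without identifiers 52001 to 56500 as well (added after the data had been seen) 5025 and 5992. With a minimum of 50 RPKM, 853 were higher and 728 lower, with 2 pathway genes lower and 3 regulators higher. Transcripts of a single tissue numbered 155 in root and 182 in flower with under 0.1 RPKM in the other, and 37 and 176 with at least 50 RPKM in the first. The 20 highest shared 5.0% and the 500 highest 36.2%. The 3 scalings kept the totals higher and lower in root, the percent apart by level and the counts of pathway genes and regulators within 1.5 times, but at 500 RPKM and over the upper quartile took the lower transcripts from 35 to 21 and the 32-fold lower ones from 22 to 14. They moved the share of differing transcripts that were higher in root from 46.9% to 45.8% (same total), 56.8% (median ratio) and 62.3% (upper quartile). The pathway genes higher and lower in root went from 8 and 9 to 8 and 7 (median ratio) and to 10 and 6 (upper quartile), so their balance turned to root.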

Other observations

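A second, narrower run of identifiers went the other way. Of the 1000 transcripts from 50501 to 51500, 381 (38.1%) had at least 1 RPKM in flower and under 0.1 in root, beside 1.74% of the other 58220. Of these 1000, 362 were listed at 0 in root and 0 in flower, and the median flower value of the 381 was 1.66 RPKM. D4H is the named gene whose identifier lies in this run. Outside it, the share in a window of 500 reached at most 19.8%.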
